A study of Mus musculus with 32 samples.

Results

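The unfolded protein response and the integrated stress response were followed in mouse liver through a module of 35 genes. The members were given as a list of known targets and sensors of both responses, chosen with earlier results of these data known. Counts of called members beside all genes therefore describe this list and do not test it. A gene counted as present where a probe of the array carried its symbol. Of the 35, 33 were among the 21086 genes tested. They fall into 3 sets: an ATF4 arm of 14 genes (13 tested), 4 sensors with Xbp1 counted among them (3 tested), and a chaperone arm of 17 genes (17 tested), of which 13 fold proteins and 4 serve degradation. Slc7a11, the cystine transporter of the ATF4 arm, was too dim to test, with signal well above background on 3 of 32 arrays. The probe of Xbp1 was marked as an outlier by the scanner software on 1 array, so its values rest on 31 arrays and a separate fit.

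Proteins that enter the endoplasmic reticulum (ER) are folded by chaperones there, and misfolded proteins set off the unfolded protein response through the membrane sensors PERK, IRE1 and ATF6. IRE1 and ATF6 act largely through the factors XBP1 and ATF6 to raise chaperones and degradation enzymes. PERK phosphorylates eIF2alpha, as do kinases that sense missing amino acids, and this favours translation of ATF4, which raises genes of amino acid supply and cell fate.

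Male C57/BL6 mice, 8 weeks old at the start, ate a control diet or a diet deficient in methionine and choline (MCD) for 3 weeks, with drug or vehicle in the last 2 weeks. Liver was then taken in a 70% partial hepatectomy (PH), and remnant liver 2 weeks later, with diet and treatment kept up in between. Arrays after PH thus come from surviving mice only. The paper reports that the drug raised survival after PH and that liver mass recovery was lower on the deficient diet. Differences between groups after PH therefore cannot be told apart from unequal survival and recovery. The 4 treatments are C (control diet, vehicle), C+Fc-GLP-1 (control diet, drug), MCD (deficient diet, vehicle) and M+Fc-GLP-1 (deficient diet, drug), each with 4 arrays before and 4 after PH. The labels name the drug in conflicting ways: source names say Fc-GLP-1, except that those of C+Fc-GLP-1 after PH give a dual agonist for the weeks after surgery, and other labels give a dual agonist of the GLP1R and GCGR receptors. The paper gives Fc-GLP-1, a GLP1R agonist, for both drug groups, before and after PH. Since the labels conflict, Fc-GLP-1 is used here as a name only.

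Each value below is the log2 processed signal of a probe minus the 75th percentile of its array, so 0 is that percentile and 1 unit is a doubling. A gene was called where its limma p, adjusted over all 21086 genes, was under 0.05. Called changes were refitted under alternative settings and without single arrays. Where a list of refits that lost a call ends in adjusted p values, these belong to the refits without single arrays. Signal was well above background for 35.9 to 69.0% of probes per array (median 51.6%), and 4 arrays per group limit the precision. MCD and C before PH shared a slide, as did both drug groups before PH and both drug groups after PH. Every other pair of groups lay on different slides, where slide and group cannot be told apart. The hepatocyte markers Alb, Apoa1, Ttr, Tat and Cps1 were well above background on 32 of 32 arrays, with a summed level of 10.42 to 11.73 and Alb as the brightest probe. In bulk liver, fewer cells of a type and less RNA per cell cannot be told apart.

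With the MCD diet several targets of ATF4 read higher and some ER chaperones read lower. Before PH, 11 of 33 members were called between MCD and C, 7 higher (6 of the 13 ATF4-arm genes) and 4 lower, where 26.5% of all genes tested were called, 2307 higher and 3272 lower. With the drug in both groups, M+Fc-GLP-1 against C+Fc-GLP-1 before PH, 11 of 33 were called, 6 higher (with Stc2, below background in both groups) and 5 lower, beside 10.3% of all genes, 1127 higher and 1055 lower. The same diet comparison under drug after PH called 11 of 33, 5 higher and 6 lower, beside 12.8% of all genes, 1307 higher and 1395 lower. Higher calls were ATF4-arm genes or the sensor Eif2ak3, except Herpud1 after PH, and lower calls were all chaperone-arm genes. These 3 comparisons lie within slides, but on each slide the control diet took array row 1 and the deficient diet row 2, so diet and array row cannot be told apart.

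The median of the 13 ATF4-arm genes was 0.36 for MCD against C before PH, where all genes had a median of -0.13. Under drug the median was 0.96 before PH (all genes 0.04, and 0.66 over 12 genes without Stc2, which was below background in both groups) and 0.68 after PH (all genes -0.01). The chaperone arm had medians of -0.66, -0.72 and -0.62 in the same comparisons. With 1 array left out, the median for MCD against C before PH ran from -0.81 to -0.43. Across 3 other scalings and the authors' values the ATF4-arm medians stayed positive, at 0.36 to 0.93, 0.43 to 0.98 and 0.64 to 0.75. Those of the chaperone arm stayed negative, at -0.66 to -0.30, -0.98 to -0.59 and -0.66 to -0.61. Centring each array on its median moved the all-gene median of MCD against C before PH by 0.37, from -0.13 to 0.24, and that of the drug groups before PH by -0.26. The division of calls moved with scaling too. MCD against C before PH gave 9 higher and 2 lower members with normexp and quantile normalization or the authors' values, and 8 and 1 with median centring. M+Fc-GLP-1 against C+Fc-GLP-1 before PH gave 4 and 5 with normexp or the authors' values.

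**Figure D1:**
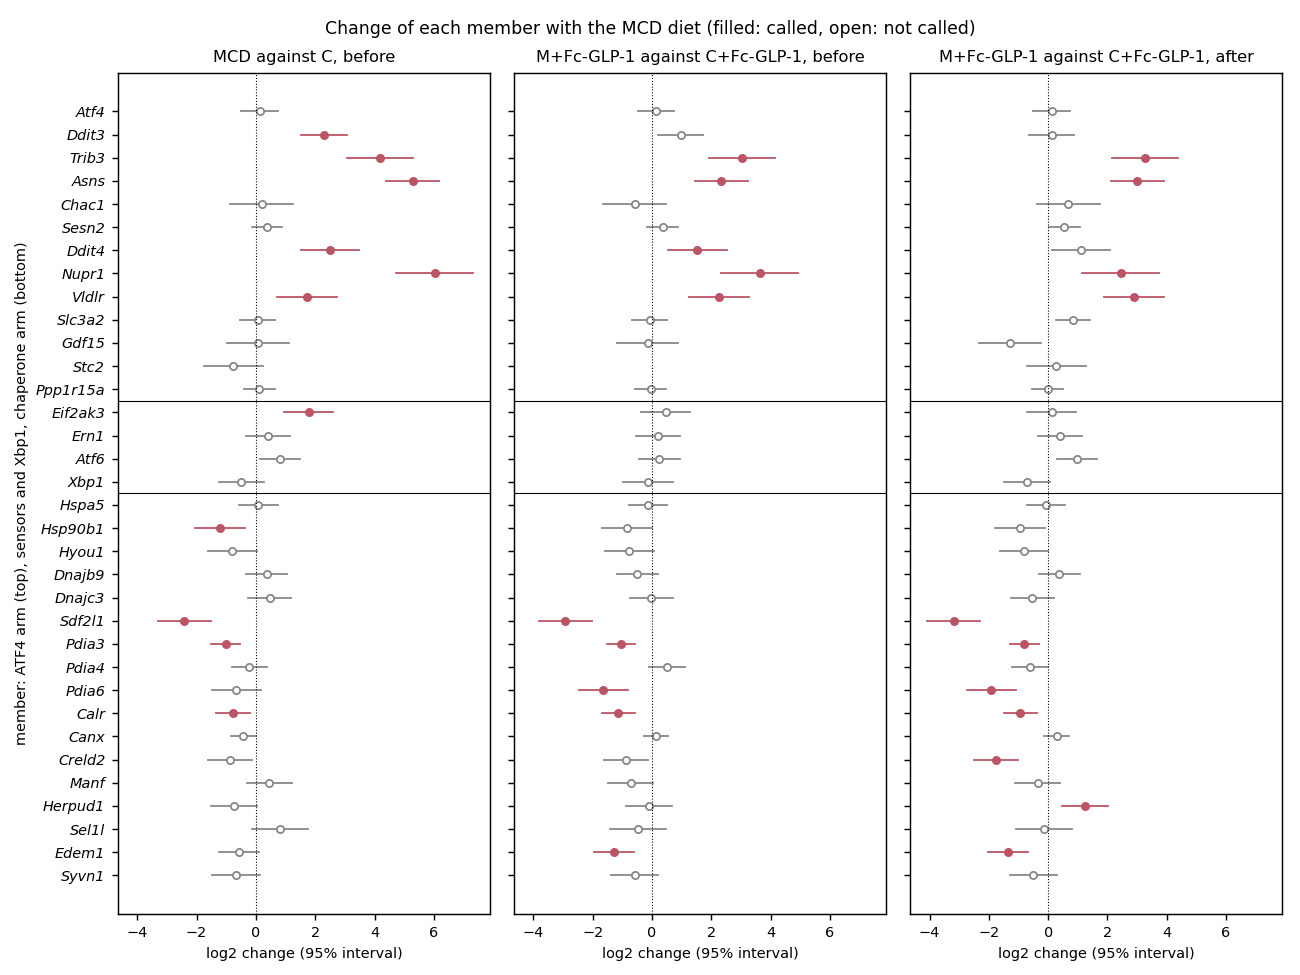
Log2 change of each tested member for the deficient against the control diet in 3 comparisons within slides, with 95% intervals. Filled points were called and open points were not; Slc7a11 is not drawn, nor Stc2 where a group was below background on all arrays.

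Several ATF4-arm genes carry the composite C/EBP-ATF core TGATGNAA near their start sites, a sequence bound by ATF4 with C/EBP partners. In 250 bases upstream and 50 downstream of the start, on both strands, the core was present in 6 of 14 ATF4-arm genes (Trib3, Asns, Chac1, Nupr1, Vldlr and Slc7a11) and in 1 of 15 chaperone-arm genes with a promoter entry (Herpud1), beside 4.51% of 27025 mouse genes with a promoter entry. The 4 promoters below are those of tested ATF4-arm genes with the core upstream of the start; capitals mark it. They are from RefSeq on build GRCm38.p6: Asns (chr6:7693210-7693459, minus strand), Nupr1 (chr7:126625471-126625720, minus strand), Vldlr (chr19:27216770-27217019, plus strand) and Chac1 (chr2:119350992-119351241, plus strand). A match describes the sequence alone, and binding was not measured.
Asns: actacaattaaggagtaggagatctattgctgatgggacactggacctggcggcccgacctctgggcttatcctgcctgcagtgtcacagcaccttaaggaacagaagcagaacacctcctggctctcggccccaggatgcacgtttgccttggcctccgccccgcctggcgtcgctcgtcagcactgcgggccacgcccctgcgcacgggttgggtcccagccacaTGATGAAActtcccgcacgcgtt
Nupr1: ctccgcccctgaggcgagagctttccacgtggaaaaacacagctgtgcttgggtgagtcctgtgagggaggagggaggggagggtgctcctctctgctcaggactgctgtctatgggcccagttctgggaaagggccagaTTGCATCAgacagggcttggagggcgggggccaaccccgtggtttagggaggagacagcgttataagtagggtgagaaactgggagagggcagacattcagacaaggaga
Vldlr: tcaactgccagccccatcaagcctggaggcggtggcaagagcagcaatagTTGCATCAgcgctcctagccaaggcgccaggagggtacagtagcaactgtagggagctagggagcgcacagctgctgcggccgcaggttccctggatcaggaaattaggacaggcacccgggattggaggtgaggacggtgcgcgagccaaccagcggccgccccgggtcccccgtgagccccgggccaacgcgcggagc
Chac1: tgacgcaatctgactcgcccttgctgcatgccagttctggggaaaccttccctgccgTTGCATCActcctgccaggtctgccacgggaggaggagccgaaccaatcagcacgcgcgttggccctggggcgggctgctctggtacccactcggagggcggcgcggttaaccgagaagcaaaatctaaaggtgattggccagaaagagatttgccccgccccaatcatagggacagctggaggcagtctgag

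Asns, which makes asparagine from aspartate and carries the core 23 bases before its start, had the second largest rise of the module for MCD against C before PH. Before PH, Asns read -1.17, -0.12, 0.03 and 0.39 in C, 0.63, 2.28, 1.17 and -0.26 in C+Fc-GLP-1, 4.78, 4.74, 5.32 and 5.45 in MCD, and 3.03, 3.76, 3.31 and 3.06 in M+Fc-GLP-1. All 4 MCD values lay above all M+Fc-GLP-1 values, and these above all values of both control-diet groups. After PH, Asns read 1.76, 3.39, 1.48 and 3.20 in C, 2.67, 2.74, 1.56 and 3.13 in C+Fc-GLP-1, 5.71, 6.01, 5.63 and 5.99 in MCD, and 5.41, 6.02, 5.63 and 5.08 in M+Fc-GLP-1. Both deficient-diet groups again lay above both control-diet groups without overlap. Between MCD and C before PH Asns rose by 5.29 ± 0.44 (SE, adjusted p = 2.38e-09), in 4 of 4 arrays. It rose by 2.33 ± 0.44 (SE, adjusted p = 0.00066) between M+Fc-GLP-1 and C+Fc-GLP-1 before PH, and rose by 3.01 ± 0.44 (SE, adjusted p = 2.28e-05) after PH, each in 4 of 4 arrays.

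Nupr1, a small chromatin-associated protein induced by many stresses, had the largest rise in that comparison. Before PH, Nupr1 read 0.04, 0.19, -0.36 and -0.44 in C, 0.88, 0.82, 1.14 and 1.04 in C+Fc-GLP-1, 5.72, 7.15, 4.86 and 5.83 in MCD, and 3.14, 4.87, 6.27 and 4.12 in M+Fc-GLP-1. The deficient-diet groups lay above the control-diet groups throughout, and the MCD and M+Fc-GLP-1 values overlapped. After PH, Nupr1 read 2.07, 1.18, -0.10 and 1.14 in C, 2.20, 1.15, 1.21 and 1.36 in C+Fc-GLP-1, 5.92, 5.72, 3.32 and 3.15 in MCD, and 3.71, 2.91, 3.48 and 5.65 in M+Fc-GLP-1. All 8 values on the deficient diet exceeded all 8 on the control diet. Nupr1 rose by 6.03 ± 0.63 (SE, adjusted p = 1.53e-07) between MCD and C before PH, in 4 of 4 arrays. Under drug it rose by 3.63 ± 0.63 (SE, adjusted p = 0.000273) before PH and rose by 2.45 ± 0.63 (SE, adjusted p = 0.00952) after PH, in 4 of 4 arrays each. After PH under drug the call was lost without M+Fc-GLP-1 replicate 4, at 1.88 (adjusted p = 0.0522; range over alternatives 0.00771 to 0.0522).

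Trib3 encodes a pseudokinase that restrains AKT and feeds back on ATF4. Before PH, Trib3 read 2.72, 3.44, 1.75 and 2.13 in C, 2.32, 1.74, 1.06 and 2.58 in C+Fc-GLP-1, 7.74, 6.74, 6.51 and 5.83 in MCD, and 3.49, 5.68, 5.93 and 4.72 in M+Fc-GLP-1. Every value on the deficient diet lay above every value on the control diet, and 3 of 4 M+Fc-GLP-1 arrays lay below all MCD arrays. After PH, Trib3 read 2.21, 1.17, 2.59 and 1.57 in C, 1.62, 0.80, 1.72 and 1.80 in C+Fc-GLP-1, 5.93, 6.38, 3.63 and 4.33 in MCD, and 4.56, 4.41, 4.70 and 5.38 in M+Fc-GLP-1. The diets were again apart without overlap. Trib3 rose by 4.19 ± 0.54 (SE, adjusted p = 2.86e-06) in MCD against C before PH. The rise under drug was 3.03 ± 0.54 (SE, adjusted p = 0.000358) before PH and 3.28 ± 0.54 (SE, adjusted p = 0.000111) after PH, with 4 of 4 arrays higher in each.

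Ddit3 encodes CHOP, a factor tied to cell death when stress persists. Before PH, Ddit3 read 0.06, 0.18, 0.35 and 0.39 in C, 0.31, -0.32, -0.19 and -0.22 in C+Fc-GLP-1, 2.78, 3.06, 2.48 and 1.81 in MCD, and -0.17, 1.64, 1.70 and 0.25 in M+Fc-GLP-1. MCD stood above the other groups on all 4 arrays, while M+Fc-GLP-1 was split, with replicates 2 and 3 high and replicates 1 and 4 among the control-diet values. After PH, Ddit3 read -0.33, 0.00, -0.40 and -0.34 in C, -0.24, 0.41, 0.07 and -0.18 in C+Fc-GLP-1, 1.11, 1.63, 0.58 and 0.46 in MCD, and -0.58, 0.38, -0.47 and 1.22 in M+Fc-GLP-1. MCD lay above C throughout, and the drug groups overlapped. Ddit3 rose by 2.29 ± 0.38 (SE, adjusted p = 6.58e-05) between MCD and C before PH, in 4 of 4 arrays. Under drug the change was 0.96 ± 0.38 (SE, adjusted p = 0.101) before PH and 0.12 ± 0.38 (SE, adjusted p = 0.894) after PH, neither called. Without M+Fc-GLP-1 replicate 1 the change before PH was called, at 1.30 (adjusted p = 0.0284; range over alternatives 0.0284 to 0.355). Leaving out 1 array after PH gave values from -0.24 to 0.36.

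Ddit4 encodes an inhibitor of mTOR signalling that ATF4 raises when amino acids are short. Before PH, Ddit4 read 0.08, 2.50, 2.37 and 1.81 in C, 1.94, 2.80, 2.23 and 1.77 in C+Fc-GLP-1, 4.32, 4.25, 4.86 and 3.34 in MCD, and 4.54, 4.26, 3.48 and 2.58 in M+Fc-GLP-1. MCD lay above C on all arrays, and M+Fc-GLP-1 replicate 4 fell within the C+Fc-GLP-1 range. After PH, Ddit4 read 3.95, 3.07, 2.05 and 2.39 in C, 3.29, 1.86, 3.65 and 3.29 in C+Fc-GLP-1, 4.63, 4.91, 4.71 and 4.41 in MCD, and 4.51, 3.57, 4.01 and 4.41 in M+Fc-GLP-1. MCD lay above C without overlap, and the drug groups overlapped. Ddit4 rose by 2.50 ± 0.48 (SE, adjusted p = 0.000385) in MCD against C before PH and rose by 1.53 ± 0.48 (SE, adjusted p = 0.0396) under drug, where 3 of 4 arrays exceeded all C+Fc-GLP-1 arrays. That second change kept its call in 6 of 17 alternatives (adjusted p 0.0165 to 0.127), losing it with normexp with quantile normalization, median centring, the authors' normalized values, no filter and the fit of the compared groups and without C+Fc-GLP-1 replicates 1, 3 or 4 or M+Fc-GLP-1 replicates 1, 2 or 3 (adjusted p 0.059 to 0.127). After PH under drug the change was 1.10 ± 0.48 (SE, adjusted p = 0.14), not called.

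Vldlr encodes the receptor that takes up triglyceride-rich lipoproteins, and it is raised by ATF4 in liver. Before PH, Vldlr read -2.73, -1.44, -1.64 and -1.56 in C, -1.05, -4.35, -1.62 and -1.39 in C+Fc-GLP-1, -0.06, -0.30, 0.06 and -0.21 in MCD, and 0.40, -1.14, 0.74 and 0.56 in M+Fc-GLP-1. In C+Fc-GLP-1 3 of 4 arrays were well above background, and replicate 2 at -4.35 was the dimmest. MCD lay above C, and M+Fc-GLP-1 above C+Fc-GLP-1 except for its replicate 2. After PH, Vldlr read -2.33, -2.42, -2.22 and -2.39 in C, -1.85, -2.20, -1.36 and -2.56 in C+Fc-GLP-1, -0.56, -0.05, -0.90 and -0.54 in MCD, and 1.09, 1.22, -0.22 and 1.51 in M+Fc-GLP-1. Deficient-diet values exceeded control-diet values on every array. Vldlr rose by 1.72 ± 0.49 (SE, adjusted p = 0.0112) between MCD and C before PH; this kept its call in 15 of 17 alternatives (adjusted p 0.00234 to 0.0525), losing it with the mean over probes and without C replicate 1 (adjusted p = 0.0525), where the change was 1.42. Under drug before PH it rose by 2.24 ± 0.49 (SE, adjusted p = 0.00327), in 3 of 4 arrays; it was 1.49 without C+Fc-GLP-1 replicate 2, and the call was lost in the fit of the compared groups (adjusted p up to 0.0887, from 0.000726). After PH under drug it rose by 2.89 ± 0.49 (SE, adjusted p = 0.000167), in 4 of 4 arrays. A second Vldlr probe, above background on 20 of 32 arrays, was called after PH (2.06 for MCD against C and 1.79 under drug) and not before PH (0.48 and 1.51).

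Atf4 itself encodes the factor, whose output is set mainly by translation, and calls on its mRNA depended on the scaling. Before PH, Atf4 read 6.77, 7.12, 7.91 and 8.10 in C, 7.49, 7.36, 7.57 and 7.36 in C+Fc-GLP-1, 7.80, 7.88, 7.68 and 7.04 in MCD, and 7.12, 8.21, 7.86 and 7.14 in M+Fc-GLP-1. The groups overlapped, and C spanned the widest range, with replicates 1 and 2 low and 3 and 4 high. After PH, Atf4 read 6.37, 6.93, 6.96 and 6.40 in C, 6.31, 7.48, 6.81 and 6.95 in C+Fc-GLP-1, 6.89, 7.51, 6.75 and 6.33 in MCD, and 6.85, 7.03, 6.94 and 7.19 in M+Fc-GLP-1. Here too the groups overlapped. The change was 0.13 ± 0.30 (SE, adjusted p = 0.79) for MCD against C before PH, 0.13 ± 0.30 (SE, adjusted p = 0.833) under drug before PH and 0.11 ± 0.30 (SE, adjusted p = 0.87) under drug after PH, none called. For MCD against C before PH it was called higher with normexp and quantile normalization (0.83, adjusted p = 0.035) and with the authors' values (0.81, adjusted p = 0.0337; range over alternatives 0.0337 to 0.989). Its sign depended on the scaling and on single arrays. A second Atf4 probe gave 0.99 (adjusted p = 0.055) for MCD against C, -0.43 under drug before PH and -0.31 after PH, none called.

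Stc2, a secreted glycoprotein that restrains calcium entry, was near the floor of the array, well above background on 14 of 32 arrays. Before PH, Stc2 read -4.91, -3.17, -3.99 and -4.90 in C, -5.94, -5.94, -5.34 and -5.50 in C+Fc-GLP-1, -5.91, -5.80, -4.45 and -3.90 in MCD, and -5.14, -3.30, -3.20 and -4.20 in M+Fc-GLP-1. These are mostly readings below the background limit, and 0 of 4 arrays in each drug group were above it, against 2 of 4 in C and 2 of 4 in MCD. After PH, Stc2 read -4.01, -5.09, -5.07 and -4.87 in C, -3.60, -4.29, -3.61 and -3.29 in C+Fc-GLP-1, -5.99, -6.26, -3.89 and -5.47 in MCD, and -3.47, -3.36, -3.88 and -2.995 in M+Fc-GLP-1. C+Fc-GLP-1 was above background on 4 of 4 arrays, M+Fc-GLP-1 on 3, C on 2 and MCD on 1. Stc2 was called between the drug groups before PH (adjusted p = 0.0214), but both groups were below background on all arrays and no fold is given. Stc2 kept its call in 11 of 17 alternatives (adjusted p 0.00739 to 0.624), losing it with normexp with quantile normalization and the authors' normalized values and without C+Fc-GLP-1 replicates 1 or 2 or M+Fc-GLP-1 replicates 2 or 3 (adjusted p 0.0508 to 0.0833).

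Of the other ATF4-arm members, Chac1 degrades glutathione, Sesn2 senses leucine, Slc3a2 is the heavy chain of amino acid exchangers, Gdf15 is a stress hormone and Ppp1r15a reverses eIF2alpha phosphorylation. In the 3 comparisons within slides their changes ran from -1.28 (Gdf15) to 0.84 (Slc3a2), both under drug after PH, and none was called. Of the arm's 13 genes, 6 were thus called higher for MCD against C before PH and none lower.

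**Figure D2:**
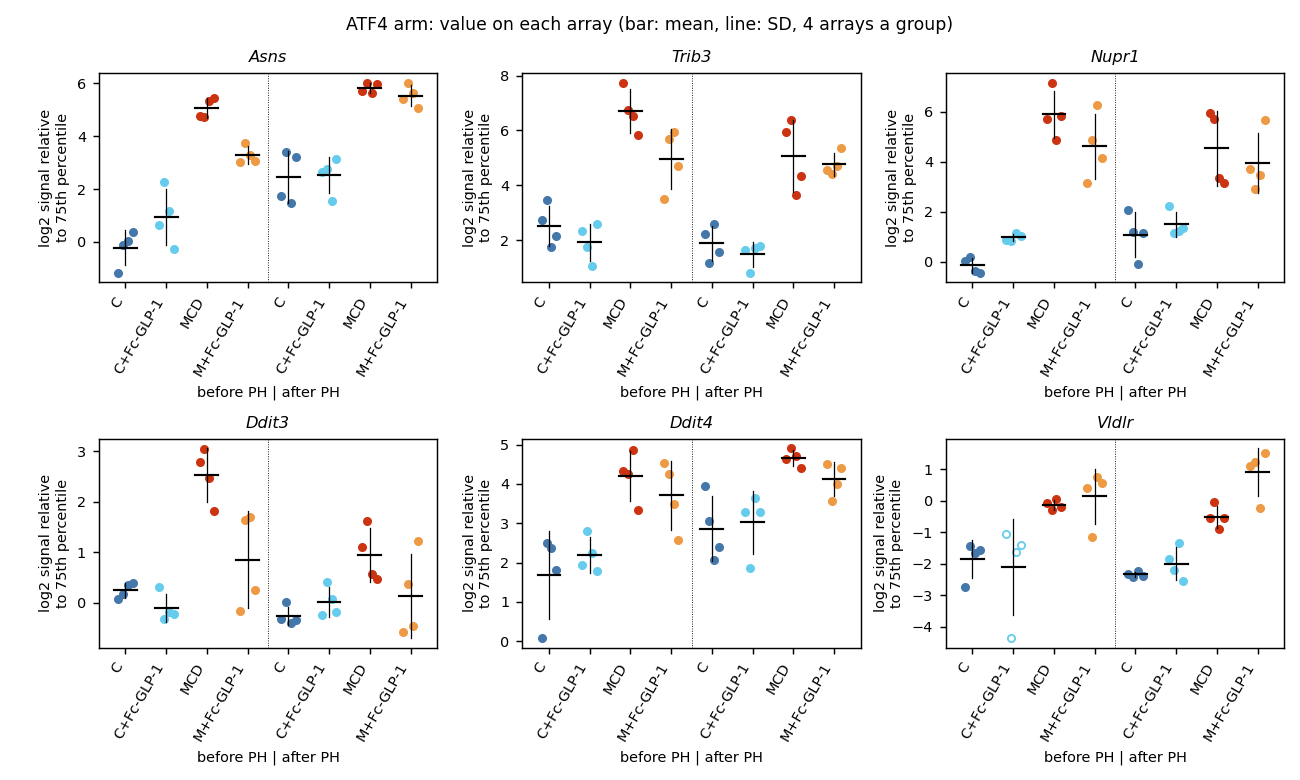
Level of 6 ATF4-arm genes on each of 32 arrays, by treatment and time, as log2 signal minus the array's 75th percentile. Open points belong to a group with fewer than 4 arrays well above background.

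At 2 weeks after PH, 8 of 13 ATF4-arm genes were called higher on the deficient diet in surviving vehicle-treated mice. MCD and C after PH lay on different slides, so these values hold for the slides as much as for the diet. In that comparison 10 of 33 members were called, 8 higher and 2 lower, beside 12.1% of all genes. The ATF4-arm median was 1.20 (all genes -0.03; 1.12 to 1.33 over scalings), and median centring moved the all-gene value by 0.12. Asns rose by 3.38 ± 0.44 (SE, adjusted p = 4.95e-06), Nupr1 rose by 3.45 ± 0.63 (SE, adjusted p = 0.000489) and Trib3 rose by 3.18 ± 0.54 (SE, adjusted p = 0.000192). Slc3a2 rose by 1.20 ± 0.29 (SE, adjusted p = 0.00573) in 4 of 4 arrays, and Sesn2 rose by 1.03 ± 0.25 (SE, adjusted p = 0.00619) in 4 of 4. Sesn2 kept its call in 14 of 17 alternatives (adjusted p 0.000945 to 0.156), losing it with normexp with quantile normalization, the authors' normalized values and the fit of the compared groups.

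Ddit4 rose by 1.80 ± 0.48 (SE, adjusted p = 0.0134) in MCD against C after PH, and it kept its call in 16 of 17 alternatives (adjusted p 0.00331 to 0.0631), losing it without C replicate 3 (adjusted p = 0.0631). Vldlr rose by 1.83 ± 0.49 (SE, adjusted p = 0.0144), and it kept its call in 16 of 17 alternatives (adjusted p 0.00261 to 0.0526), losing it without MCD replicate 2 (adjusted p = 0.0526). Ddit3 rose by 1.21 ± 0.38 (SE, adjusted p = 0.0321), and it kept its call in 9 of 17 alternatives (adjusted p 0.0271 to 0.135), losing it with normexp with quantile normalization, the authors' normalized values and no filter and without C replicates 1, 3 or 4 or MCD replicates 1 or 2 (adjusted p 0.0513 to 0.135). Each of these 3 was higher on 4 of 4 MCD arrays.

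The drug was set against vehicle on each diet, first on the deficient diet before PH. Those groups lay on slides 3 and 4, so drug and slide cannot be told apart. In M+Fc-GLP-1 against MCD before PH 3 of 33 members were called, all lower, beside 7.23% of all genes. Normexp called 8, the authors' values 7 and median centring 6, all lower. The ATF4-arm median was -0.52 (all genes 0.10; -0.84 to -0.52 over scalings; -0.55 with Stc2 at its bound), and median centring moved the all-gene value by -0.32. Asns fell by 1.78 ± 0.44 (SE, adjusted p = 0.0143), with 4 of 4 M+Fc-GLP-1 arrays below all MCD arrays. Ddit3 fell by 1.68 ± 0.38 (SE, adjusted p = 0.00827), in 4 of 4 arrays, and kept its call in 14 of 17 alternatives (adjusted p 0.00389 to 0.0648), losing it with normexp with quantile normalization, the authors' normalized values and the fit of the compared groups. Trib3 fell by 1.75 ± 0.54 (SE, adjusted p = 0.0461), with 3 of 4 arrays below all MCD arrays, and kept its call in 10 of 17 alternatives (adjusted p 0.00669 to 0.177), losing it with the fit of the compared groups and the replicate block and without MCD replicates 1, 2 or 3 or M+Fc-GLP-1 replicates 1 or 4 (adjusted p 0.0735 to 0.177).

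On the control diet before PH the drug left the module without a call: limma called 0 of 33 members for C+Fc-GLP-1 against C, beside 2.11% of all genes, with 3 of 33 at an unadjusted p under 0.05. By normexp with quantile normalization or the authors' values 3 members were called, 1 higher and 2 lower, with 6 and 5 at an unadjusted p under 0.05; median centring had 7 at that p and called 0. The ATF4-arm median was -0.10 (all genes -0.04), and both arms' medians changed sign with the scaling, and median centring moved the all-gene value by 0.30. Nupr1 gave 1.11 ± 0.63 (SE, adjusted p = 0.354) and Asns 1.17 ± 0.44 (SE, adjusted p = 0.144). Slide and drug cannot be told apart here.

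After PH the drug comparisons again span slides, and also scanners: both vehicle groups were read on 1 scanner and both drug groups on the other, so drug, slide and scanner cannot be told apart. C+Fc-GLP-1 against C called 1 of 33 members, beside 2.06% of all genes: Pdia3, a disulfide isomerase, rose by 0.88 ± 0.24 (SE, adjusted p = 0.0481), in 4 of 4 arrays. Pdia3 kept its call in 2 of 17 alternatives (adjusted p 0.046 to 0.365), losing it with normexp with quantile normalization, median centring, the percentile over probes bright on every array, the authors' normalized values, no filter, the fit of the compared groups and the replicate block and without C replicates 1, 2, 3 or 4 or C+Fc-GLP-1 replicates 1, 2, 3 or 4 (adjusted p 0.0601 to 0.122). M+Fc-GLP-1 against MCD called 2 of 33, 1 higher and 1 lower, beside 6.5% of all genes, with 1 and 2 by normexp or the authors' values and 1 and 0 by median centring. Of these, Sdf2l1 fell by 1.42 ± 0.44 (SE, adjusted p = 0.0477), in 4 of 4 arrays, and kept its call in 8 of 17 alternatives (adjusted p 0.0154 to 0.191), losing it with median centring, no filter and the fit of the compared groups and without MCD replicates 1 or 2 or M+Fc-GLP-1 replicates 1, 2, 3 or 4 (adjusted p 0.0593 to 0.191). Stc2 was called higher (adjusted p = 0.0147) with 3 of 4 M+Fc-GLP-1 and 1 of 4 MCD arrays above background, so no fold is given, and kept its call in 13 of 17 alternatives (adjusted p 0.00317 to 0.218), losing it with normexp with quantile normalization and the authors' normalized values and without MCD replicates 1 or 2 (adjusted p 0.0574 to 0.0678). Without MCD replicate 1 or 2 the comparison called 0 members, and without M+Fc-GLP-1 replicate 1, 2 or 4 it called 1. The ATF4-arm medians were 0.22 (all genes 0.04) on the control diet, where the sign changed with scaling, and -0.34 (all genes 0.05; -0.47 to -0.34 over scalings, -0.56 to -0.13 without 1 array) on the deficient diet, where median centring moved the all-gene median by -0.13 and the authors' values by -0.10.

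Liver after PH was compared with liver before PH within each drug group, and few members differed between the time points. Slide and time cannot be told apart, and the labels do not link the mice. Mice after PH were also older and had 2 more weeks of diet and treatment. No group went without PH for as long, so regrowth cannot be told apart from these either. C+Fc-GLP-1 after against before PH called 1 of 33 members, beside 0.835% of all genes: Stc2 (adjusted p = 0.0457), from 0 to 4 of 4 arrays above background. Stc2 passed the filter on dim probes through C+Fc-GLP-1 after PH alone, so this call is not independent of that selection and no change is read from it. It kept its call in 8 of 16 alternatives (adjusted p 0.0311 to 0.13), losing it with normexp with quantile normalization and without any 1 of 7 of the 8 arrays other than replicate 2 after PH (adjusted p 0.0612 to 0.13). Without C+Fc-GLP-1 replicate 1, 3 or 4 of either time the comparison called 0 members. Normexp gave 1 higher and 1 lower, and the percentile over probes bright on every array 3 higher and 0 lower.

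M+Fc-GLP-1 after against before PH called 2 of 33, 1 higher and 1 lower, beside 1.71% of all genes. Asns rose by 2.25 ± 0.44 (SE, adjusted p = 0.00553), in 4 of 4 arrays, and Gdf15 fell by 2.26 ± 0.51 (SE, adjusted p = 0.0172), in 4 of 4. Gdf15 kept its call in 12 of 16 alternatives (adjusted p 0.0137 to 0.0825), losing it with the fit of the compared groups and without replicate 3 before PH or replicate 2 or 3 after PH (adjusted p 0.0643 to 0.0825); without each of those the comparison called 1 member. Both arms' medians lay near 0 and changed sign with the scaling in both drug groups: the ATF4 arm gave -0.26 (all genes 0.00) and -0.06 (all genes -0.03), the chaperone arm -0.13 and -0.03.

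Whether the drug altered the response to the diet was tested as an interaction before PH, where additive slide differences cancel. Of 33 members 2 were called, 1 lower and 1 higher, beside 6.18% of all genes. The diet raised Asns less with the drug than without, by 2.96 ± 0.62 (SE, adjusted p = 0.00795), kept in 25 of 25 alternatives. All 4 MCD arrays lay above all 4 M+Fc-GLP-1 arrays, and 3 of 4 C+Fc-GLP-1 arrays lay above all C arrays. Stc2 was called at 2.49 ± 0.69 (SE, adjusted p = 0.0323) over groups with 2, 2, 0 and 0 of 4 arrays above background, so the value is not a fold and no diet change under drug was measured for it. Stc2 kept its call in 15 of 25 alternatives (adjusted p 0.0186 to 0.814), losing it with normexp with quantile normalization, median centring, the authors' normalized values and no filter and without C replicate 2, MCD replicates 1 or 2, C+Fc-GLP-1 replicate 2 or M+Fc-GLP-1 replicates 2 or 3 (adjusted p 0.0512 to 0.0768), and without C replicate 2, MCD replicate 1 or 2, C+Fc-GLP-1 replicate 2 or M+Fc-GLP-1 replicate 3 the comparison called 1 member.

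Uncalled interaction values were Nupr1 -2.40 ± 0.90 (SE, adjusted p = 0.103), Ddit3 -1.33 ± 0.53 (SE, adjusted p = 0.127), Trib3 -1.16 ± 0.77 (SE, adjusted p = 0.363) and Vldlr 0.52 ± 0.70 (SE, adjusted p = 0.686), the last 1.03 by its second probe. Ddit3 was called with median centring, at -1.95 (adjusted p = 0.033; range over alternatives 0.033 to 0.349). The interaction for Atf4 was 0.01 ± 0.43 (SE, adjusted p = 0.994), and -1.43 by its second probe. The ATF4-arm median was -0.23 (all genes 0.15; -0.85 to -0.22 over scalings, -0.56 to -0.09 without 1 array), and the chaperone arm gave -0.22 (-0.84 to -0.21 over scalings, -0.36 to -0.05 without 1 array). Median centring moved the all-gene value by -0.62 and called 5 members, all lower; normexp and the authors' values moved it by -0.12 each and called 1, lower.

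The change of the diet's effect from before to after PH under drug was tested as well, and limma called 0 of 33 members, beside 0.0948% of all genes. At an unadjusted p under 0.05 there were 4 of 33 (3 by normexp, 2 by median centring, 4 by the percentile over probes bright on every array), and 0 were called by those settings. The ATF4-arm median was 0.03 (all genes -0.03) and changed sign with scaling, and the chaperone arm gave 0.06. Asns gave 0.68 ± 0.62 (SE, adjusted p = 0.766).

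Among the sensors, Eif2ak3 encodes PERK, the kinase that feeds the ATF4 arm from the ER. Before PH, Eif2ak3 read -0.31, 1.20, 0.51 and -0.39 in C, 0.61, 1.69, 0.83 and -0.08 in C+Fc-GLP-1, 1.88, 2.01, 2.28 and 1.97 in MCD, and 1.16, 1.98, 1.53 and 0.19 in M+Fc-GLP-1. MCD lay above C on all arrays, and the drug groups overlapped. After PH, Eif2ak3 read 0.76, -0.17, 0.42 and 0.52 in C, 1.43, 0.59, 1.42 and 0.58 in C+Fc-GLP-1, 1.09, 2.26, 1.02 and 0.23 in MCD, and 0.89, 1.33, 1.43 and 0.87 in M+Fc-GLP-1. MCD overlapped C, and the drug groups overlapped. Eif2ak3 rose by 1.78 ± 0.41 (SE, adjusted p = 0.00193) between MCD and C before PH, in 4 of 4 arrays. Under drug the change was 0.45 ± 0.41 (SE, adjusted p = 0.528) before PH and 0.12 ± 0.41 (SE, adjusted p = 0.901) after PH.

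Xbp1 mRNA, which IRE1 splices into an active factor, was read in total and not by splice form. Before PH, Xbp1 read 6.55, 6.28, 7.59 and 7.76 in C, 7.09, 7.50, 6.43 and 6.74 in C+Fc-GLP-1, 6.10, 6.60, 6.68 and 6.85 in MCD, and 7.16, 6.85 and 6.41 in M+Fc-GLP-1. M+Fc-GLP-1 replicate 3 has no value, and the groups overlapped. After PH, Xbp1 read 6.16, 7.15, 6.86 and 6.65 in C, 6.67, 7.54, 5.77 and 7.46 in C+Fc-GLP-1, 7.13, 5.94, 6.60 and 6.67 in MCD, and 5.90, 5.55, 6.64 and 6.49 in M+Fc-GLP-1. These overlapped as well. The changes were -0.49 ± 0.38 (SE, adjusted p = 0.347) for MCD against C before PH, -0.13 ± 0.41 (SE, adjusted p = 0.876) under drug before PH and -0.72 ± 0.38 (SE, adjusted p = 0.239) after PH, none called.

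Ern1, which encodes IRE1, gave 0.40, 0.19 and 0.40 in the same comparisons, and Atf6 gave 0.80, 0.25 and 0.97, none called. Another Ern1 probe was called for MCD against C before PH at 1.79 (adjusted p = 0.00771), while a further probe gave -0.32. The median of the 3 sensors was 0.80, 0.25 and 0.40, the second changing sign with median centring.

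Several chaperone-arm genes carry instead the ER stress response element, CCAAT and CCACG set 9 bases apart, to which ATF6 and XBP1 bind. It was present in 8 of 15 chaperone-arm genes with a promoter entry (Hspa5, Hsp90b1, Dnajc3, Pdia6, Calr, Canx, Creld2 and Syvn1), in 0 of 14 ATF4-arm genes, and in 37 of 27025 genes (0.137%). The element TGACGTGG, bound by XBP1 and ATF6, was in 0 members and 0.714% of genes. Only exact matches were counted. Members were listed as known targets, so the motif shares of both arms describe the lists and do not test them. Below are the promoters of 5 genes that carry the ER stress response element and whose values follow, and of Herpud1, which carries the C/EBP-ATF core; capitals mark the matches. They are from RefSeq on GRCm38.p6: Hspa5 (chr2:34771840-34772089, plus strand), Hsp90b1 (chr10:86705445-86705694, minus strand), Pdia6 (chr12:17266339-17266588, plus strand), Calr (chr8:84846932-84847181, minus strand), Creld2 (chr15:88819396-88819645, plus strand) and Herpud1 (chr8:94386179-94386428, plus strand).
Hspa5: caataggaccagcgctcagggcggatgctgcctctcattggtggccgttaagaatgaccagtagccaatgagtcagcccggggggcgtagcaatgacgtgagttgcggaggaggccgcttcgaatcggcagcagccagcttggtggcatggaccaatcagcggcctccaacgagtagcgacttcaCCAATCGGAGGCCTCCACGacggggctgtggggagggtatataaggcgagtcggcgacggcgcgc
Hsp90b1: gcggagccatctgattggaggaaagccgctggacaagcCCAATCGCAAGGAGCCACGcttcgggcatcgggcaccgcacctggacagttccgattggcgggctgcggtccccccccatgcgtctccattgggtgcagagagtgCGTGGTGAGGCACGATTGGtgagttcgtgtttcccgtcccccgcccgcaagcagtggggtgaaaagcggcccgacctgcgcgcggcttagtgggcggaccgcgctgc
Pdia6: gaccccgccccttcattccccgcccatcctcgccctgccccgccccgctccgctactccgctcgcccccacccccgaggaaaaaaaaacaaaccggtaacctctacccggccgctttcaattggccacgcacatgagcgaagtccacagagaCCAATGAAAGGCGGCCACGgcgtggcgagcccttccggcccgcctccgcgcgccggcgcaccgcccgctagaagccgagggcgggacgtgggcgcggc
Calr: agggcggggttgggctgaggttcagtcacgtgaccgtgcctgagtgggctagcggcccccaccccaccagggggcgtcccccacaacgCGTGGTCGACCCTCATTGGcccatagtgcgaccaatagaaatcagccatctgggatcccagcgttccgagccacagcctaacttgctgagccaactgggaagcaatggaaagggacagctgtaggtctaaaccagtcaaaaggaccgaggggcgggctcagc
Creld2: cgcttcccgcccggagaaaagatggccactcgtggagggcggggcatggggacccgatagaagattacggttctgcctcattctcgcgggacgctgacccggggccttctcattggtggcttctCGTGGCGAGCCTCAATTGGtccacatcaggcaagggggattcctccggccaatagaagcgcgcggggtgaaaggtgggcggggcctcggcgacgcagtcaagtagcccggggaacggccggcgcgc
Herpud1: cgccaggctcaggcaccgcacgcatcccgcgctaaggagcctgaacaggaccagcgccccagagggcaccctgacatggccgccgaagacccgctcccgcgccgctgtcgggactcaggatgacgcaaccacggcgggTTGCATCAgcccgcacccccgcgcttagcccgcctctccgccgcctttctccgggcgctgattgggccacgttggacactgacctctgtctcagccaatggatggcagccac

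Relative to the start site, the ER stress response element of Hspa5 begins 65 bases upstream, and the C/EBP-ATF core of Asns 23 bases upstream. Hsp90b1 carries 2 elements. No promoter entry was present for Hyou1, Manf or Atf6.

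**Figure D3:**
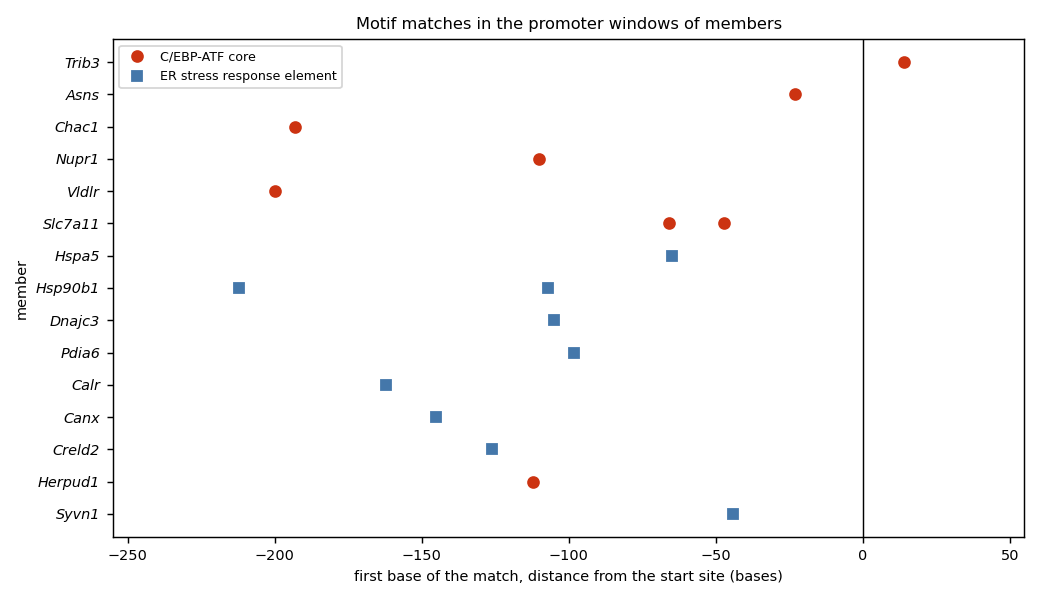
Distance of each motif match from the start site in members with a match. Circles mark the C/EBP-ATF core and squares the ER stress response element.

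Sdf2l1, a partner of the main ER chaperone in holding unfolded proteins, had the largest decrease of the module in each diet comparison. Its promoter window held no exact match to either motif. Before PH, Sdf2l1 read 3.18, 3.34, 3.88 and 3.64 in C, 2.82, 4.61, 4.07 and 3.58 in C+Fc-GLP-1, 1.05, 1.47, 0.81 and 1.05 in MCD, and 0.14, 1.29, 2.20 and -0.25 in M+Fc-GLP-1. All deficient-diet values lay below all control-diet values. After PH, Sdf2l1 read 3.92, 4.40, 4.17 and 3.60 in C, 3.53, 3.91, 4.27 and 4.59 in C+Fc-GLP-1, 3.31, 2.76, 1.50 and 1.68 in MCD, and 0.03, 1.26, 1.24 and 1.03 in M+Fc-GLP-1. The diets were apart here as well, with M+Fc-GLP-1 the lowest group. Sdf2l1 fell by 2.42 ± 0.44 (SE, adjusted p = 0.000206) for MCD against C before PH. Under drug it fell by 2.92 ± 0.44 (SE, adjusted p = 4.05e-05) before PH and fell by 3.18 ± 0.44 (SE, adjusted p = 1e-05) after PH, in 4 of 4 arrays each.

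Hspa5 encodes BiP, the chaperone by which the unfolded protein response is commonly read, and the main fit called it in no comparison. Before PH, Hspa5 read 7.40, 7.34, 8.15 and 7.93 in C, 6.62, 6.48, 7.38 and 7.48 in C+Fc-GLP-1, 7.70, 7.92, 7.83 and 7.69 in MCD, and 6.36, 6.83, 6.82 and 7.42 in M+Fc-GLP-1. MCD lay within the range of C, and the drug groups overlapped at lower readings. Across slides, M+Fc-GLP-1 lay below MCD on all arrays, and C+Fc-GLP-1 overlapped C. Drug and slide cannot be told apart there, and refits of Hspa5 across slides are not listed here. After PH, Hspa5 read 7.45, 7.98, 6.96 and 7.41 in C, 7.64, 6.87, 7.50 and 8.23 in C+Fc-GLP-1, 6.71, 8.02, 7.25 and 6.49 in MCD, and 7.66, 7.17, 7.50 and 7.59 in M+Fc-GLP-1. All groups overlapped. Within slides, the change was 0.08 ± 0.32 (SE, adjusted p = 0.874) for MCD against C before PH. Under drug it was -0.14 ± 0.32 (SE, adjusted p = 0.839) before PH and -0.08 ± 0.32 (SE, adjusted p = 0.918) after PH. The 95% intervals of these changes were -0.56 to 0.73, -0.78 to 0.51 and -0.73 to 0.57. Signs moved with scaling or single arrays.

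Hsp90b1, the ER form of the HSP90 chaperones, read low in MCD. Before PH, Hsp90b1 read 6.38, 7.84, 7.61 and 7.89 in C, 7.77, 9.02, 8.24 and 7.38 in C+Fc-GLP-1, 6.66, 6.85, 5.59 and 5.82 in MCD, and 7.61, 7.25, 7.20 and 6.93 in M+Fc-GLP-1. MCD and C overlapped through C replicate 1, and M+Fc-GLP-1 and C+Fc-GLP-1 overlapped. After PH, Hsp90b1 read 6.90, 7.67, 7.59 and 6.48 in C, 7.38, 6.85, 8.96 and 8.26 in C+Fc-GLP-1, 6.42, 6.72, 6.41 and 6.15 in MCD, and 7.54, 6.54, 7.02 and 6.55 in M+Fc-GLP-1. MCD lay below C except that C replicate 4 fell among MCD values, and the drug groups overlapped. Hsp90b1 fell by 1.20 ± 0.41 (SE, adjusted p = 0.0304) between MCD and C before PH, with 2 of 4 MCD arrays below all C arrays. It kept its call in 10 of 17 alternatives (adjusted p 0.000624 to 0.151), losing it with median centring and the fit of the compared groups and without C replicates 2, 3 or 4 or MCD replicates 3 or 4 (adjusted p 0.0644 to 0.106). Under drug the change was -0.85 ± 0.41 (SE, adjusted p = 0.191) before PH and -0.95 ± 0.41 (SE, adjusted p = 0.134) after PH, neither called.

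Pdia3 and Pdia6 form and shuffle disulfide bonds. Before PH, Pdia3 read 5.38, 5.95, 5.08 and 6.17 in C, 5.93, 6.12, 5.69 and 5.39 in C+Fc-GLP-1, 4.56, 4.47, 4.89 and 4.56 in MCD, and 4.65, 5.18, 4.82 and 4.31 in M+Fc-GLP-1. Both deficient-diet groups lay below their control-diet groups on all arrays. After PH, Pdia3 read 4.33, 4.68, 4.59 and 4.43 in C, 5.12, 5.55, 5.28 and 5.59 in C+Fc-GLP-1, 4.64, 3.95, 4.11 and 3.84 in MCD, and 4.81, 4.72, 4.18 and 4.61 in M+Fc-GLP-1. M+Fc-GLP-1 lay below C+Fc-GLP-1 on all arrays, and MCD overlapped C. Pdia3 fell by 1.02 ± 0.24 (SE, adjusted p = 0.00237) for MCD against C before PH and kept its call in 14 of 17 alternatives (adjusted p 0.000879 to 0.119), losing it with normexp with quantile normalization, median centring and the authors' normalized values. Under drug it fell by 1.05 ± 0.24 (SE, adjusted p = 0.00437) before PH and fell by 0.80 ± 0.24 (SE, adjusted p = 0.0239) after PH, in 4 of 4 arrays each, and the latter kept its call in 10 of 17 alternatives (adjusted p 0.0173 to 0.0948), losing it with normexp with quantile normalization, the authors' normalized values, no filter and the fit of the compared groups and without C+Fc-GLP-1 replicates 2 or 4 or M+Fc-GLP-1 replicate 3 (adjusted p 0.0661 to 0.0948).

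Before PH, Pdia6 read 2.97, 3.09, 3.40 and 3.15 in C, 2.72, 4.42, 3.36 and 2.68 in C+Fc-GLP-1, 2.37, 2.99, 2.42 and 2.18 in MCD, and 0.04, 2.78, 2.09 and 1.69 in M+Fc-GLP-1. M+Fc-GLP-1 replicate 2 reached the C+Fc-GLP-1 range and the other 3 arrays lay below it. After PH, Pdia6 read 3.17, 3.11, 3.46 and 3.13 in C, 2.79, 3.48, 3.64 and 3.66 in C+Fc-GLP-1, 2.33, 3.01, 2.29 and 2.60 in MCD, and 1.10, 2.21, 1.73 and 0.86 in M+Fc-GLP-1. Deficient-diet arrays lay below control-diet arrays for each treatment. Pdia6 fell by 1.65 ± 0.41 (SE, adjusted p = 0.00804) under drug before PH and kept its call in 15 of 17 alternatives (adjusted p 0.00136 to 0.126), losing it with the fit of the compared groups and without C+Fc-GLP-1 replicate 2 (adjusted p = 0.0522), where the change was -1.11. After PH under drug it fell by 1.92 ± 0.41 (SE, adjusted p = 0.00169), in 4 of 4 arrays. MCD against C before PH gave -0.66 ± 0.41 (SE, adjusted p = 0.229), not called, and those groups overlapped.

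Calr encodes calreticulin, which retains glycoproteins until folded. Before PH, Calr read 6.65, 6.97, 7.17 and 6.29 in C, 6.79, 6.80, 6.67 and 5.65 in C+Fc-GLP-1, 6.22, 6.26, 5.70 and 5.80 in MCD, and 4.93, 5.93, 5.48 and 5.01 in M+Fc-GLP-1. MCD lay below C on all arrays, and 3 of 4 M+Fc-GLP-1 arrays lay below all C+Fc-GLP-1 arrays. After PH, Calr read 6.35, 6.41, 6.78 and 6.46 in C, 6.25, 6.61, 6.65 and 7.29 in C+Fc-GLP-1, 6.64, 6.05, 6.32 and 6.19 in MCD, and 6.03, 6.09, 5.48 and 5.46 in M+Fc-GLP-1. M+Fc-GLP-1 lay below C+Fc-GLP-1 without overlap. Calr fell by 0.77 ± 0.27 (SE, adjusted p = 0.0372) between MCD and C before PH and kept its call in 7 of 17 alternatives (adjusted p 0.0216 to 0.321), losing it with normexp with quantile normalization, median centring, the authors' normalized values, no filter and the fit of the compared groups and without C replicates 1, 2 or 3 or MCD replicates 3 or 4 (adjusted p 0.0532 to 0.113). Under drug before PH it fell by 1.14 ± 0.27 (SE, adjusted p = 0.00686), losing the call in the fit of the compared groups (adjusted p 0.00101 to 0.0754 over alternatives). After PH under drug it fell by 0.93 ± 0.27 (SE, adjusted p = 0.0223), in 4 of 4 arrays, and kept its call in 11 of 17 alternatives (adjusted p 0.0147 to 0.145), losing it with normexp with quantile normalization, the authors' normalized values and the fit of the compared groups and without C+Fc-GLP-1 replicate 4 or M+Fc-GLP-1 replicates 3 or 4 (adjusted p 0.0687 to 0.103).

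Creld2, an ER stress-inducible protein that works beside the disulfide isomerases, was called lower after PH. Before PH, Creld2 read 4.49, 5.43, 6.58 and 6.04 in C, 4.90, 5.93, 6.01 and 5.37 in C+Fc-GLP-1, 4.60, 5.26, 4.62 and 4.58 in MCD, and 4.54, 5.07, 4.79 and 4.28 in M+Fc-GLP-1. The groups overlapped. After PH, Creld2 read 5.96, 7.07, 6.14 and 5.31 in C, 6.09, 6.73, 5.28 and 6.30 in C+Fc-GLP-1, 5.11, 5.06, 4.84 and 4.97 in MCD, and 4.37, 4.27, 4.41 and 4.34 in M+Fc-GLP-1. M+Fc-GLP-1 lay below every other group, and MCD lay below C. Under drug after PH Creld2 fell by 1.75 ± 0.36 (SE, adjusted p = 0.00132), in 4 of 4 arrays. For MCD against C after PH, across slides, it fell by 1.13 ± 0.36 (SE, adjusted p = 0.0381) and kept its call in 8 of 17 alternatives (adjusted p 0.0183 to 0.18), losing it with median centring, no filter and the fit of the compared groups and without C replicates 2 or 3 or MCD replicates 1, 2, 3 or 4 (adjusted p 0.0636 to 0.18). There Sdf2l1 fell by 1.71 ± 0.44 (SE, adjusted p = 0.0101), in 4 of 4 arrays. Before PH Creld2 gave -0.87 ± 0.36 (SE, adjusted p = 0.0731) and, under drug, -0.89 ± 0.36 (SE, adjusted p = 0.117).

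The degradation genes parted from each other. Herpud1 builds the complex that exports misfolded proteins, and Edem1 hands it misfolded glycoproteins. Before PH, Herpud1 read 7.39, 6.07, 6.22 and 6.30 in C, 5.93, 6.26, 5.90 and 5.39 in C+Fc-GLP-1, 5.65, 6.08, 5.19 and 6.13 in MCD, and 6.85, 5.47, 6.02 and 4.73 in M+Fc-GLP-1. The groups overlapped. After PH, Herpud1 read 4.32, 5.35, 5.08 and 4.51 in C, 4.50, 5.82, 5.17 and 4.30 in C+Fc-GLP-1, 5.40, 5.59, 5.99 and 5.58 in MCD, and 5.55, 6.47, 6.32 and 6.38 in M+Fc-GLP-1. MCD lay above C, and 3 of 4 M+Fc-GLP-1 arrays lay above all C+Fc-GLP-1 arrays. Herpud1 rose by 1.24 ± 0.38 (SE, adjusted p = 0.0278) under drug after PH and kept its call in 7 of 17 alternatives (adjusted p 0.0107 to 0.132), losing it with normexp with quantile normalization, median centring, the authors' normalized values, no filter and the fit of the compared groups and without C+Fc-GLP-1 replicates 1 or 4 or M+Fc-GLP-1 replicates 2, 3 or 4 (adjusted p 0.0646 to 0.109).

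Before PH, Edem1 read 3.44, 4.39, 5.02 and 4.89 in C, 4.33, 5.78, 4.55 and 4.46 in C+Fc-GLP-1, 3.90, 3.62, 4.12 and 3.76 in MCD, and 3.54, 3.95, 3.39 and 3.14 in M+Fc-GLP-1. M+Fc-GLP-1 lay below C+Fc-GLP-1 on all arrays, and MCD overlapped C through C replicate 1. After PH, Edem1 read 4.23, 5.14, 4.58 and 4.12 in C, 4.24, 5.32, 5.01 and 4.81 in C+Fc-GLP-1, 3.62, 4.04, 3.13 and 3.48 in MCD, and 3.46, 3.82, 3.56 and 3.06 in M+Fc-GLP-1. Deficient-diet groups lay below control-diet groups without overlap. Edem1 fell by 1.27 ± 0.33 (SE, adjusted p = 0.0115) under drug before PH and kept its call in 15 of 17 alternatives (adjusted p 0.00444 to 0.0735), losing it with the fit of the compared groups and without C+Fc-GLP-1 replicate 2 (adjusted p = 0.0735), where the change was -0.94. After PH under drug it fell by 1.37 ± 0.33 (SE, adjusted p = 0.0055), in 4 of 4 arrays.

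The other chaperone-arm members are the chaperone Hyou1, the co-chaperones Dnajb9 and Dnajc3, the isomerase Pdia4, the lectin Canx, the secreted factor Manf, and Sel1l and Syvn1 of the export complex. In the comparisons within slides their changes ran from -0.82 (Hyou1) to 0.80 (Sel1l), and none was called. By part, the 13 folding genes had medians of -0.66, -0.77 and -0.80, with 4, 4 and 5 called lower. The 4 degradation genes had -0.63, -0.54 and -0.32, with 0, 1 and 1 called lower and 1 higher after PH.

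**Figure D4:**
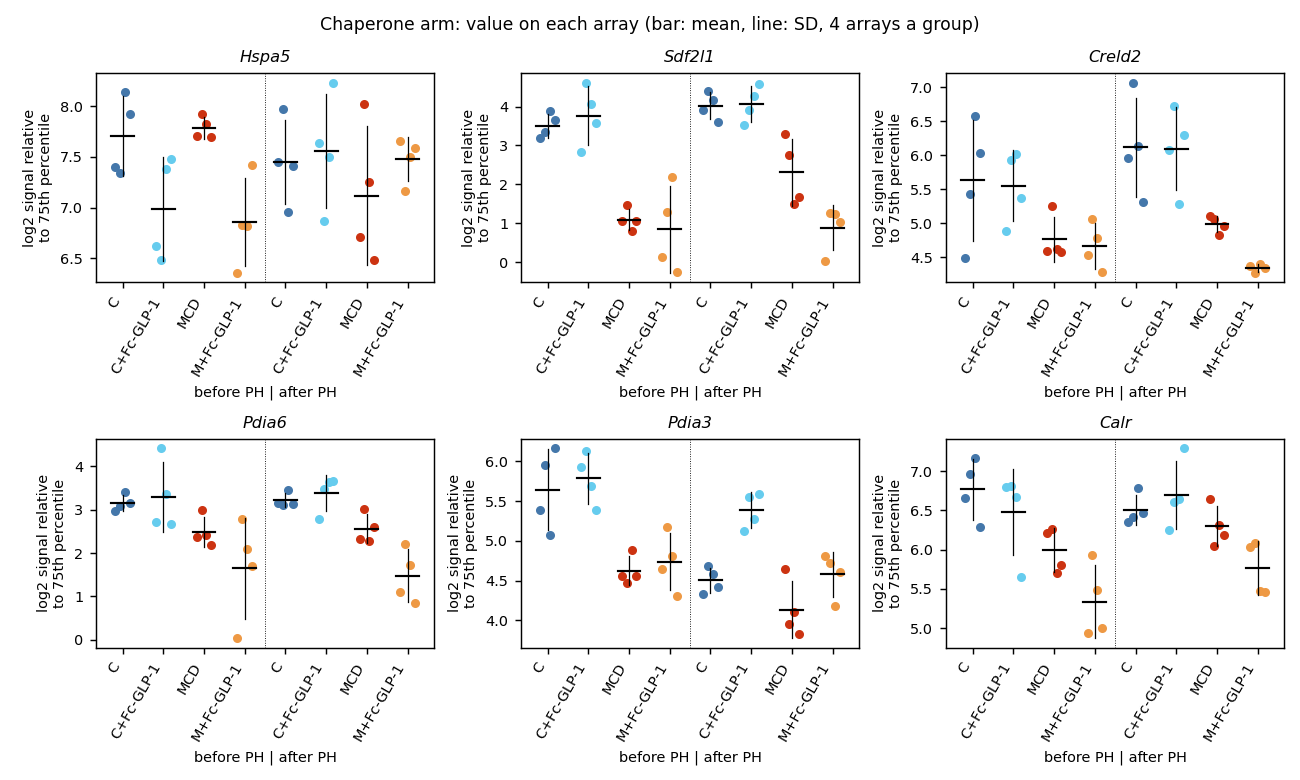
Level of 6 chaperone-arm genes on each of 32 arrays, by treatment and time, as log2 signal minus the array's 75th percentile.

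Outside the within-slide comparisons the chaperone arm had medians of -0.34 (all genes -0.03; -0.42 to -0.21 over scalings) for MCD against C after PH, -0.25 (-0.57 to -0.25) for M+Fc-GLP-1 against MCD before PH and -0.20 (-0.47 to -0.20) after PH. With 1 array left out the last 2 ran from -0.40 to 0.03, turning sign, and from -0.31 to -0.08. On the control diet the drug gave 0.14 before and 0.13 after PH, and these signs changed with scaling.

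Array by array, the ATF4 arm parted the diets for each treatment and time, and the chaperone arm overlapped in 3 of 4 such pairs. As the median deviation of the 13 ATF4-arm genes from each gene's mean over all arrays, C before PH read -0.45, -0.22, -0.13 and -0.38 and MCD 1.01, 1.12, 0.94 and 0.35, without overlap. C+Fc-GLP-1 read -0.24, -0.51, -0.63 and -0.41 and M+Fc-GLP-1 -0.15, 0.97, 0.85 and -0.07. Of M+Fc-GLP-1, replicates 2 and 3 were near MCD and 1 and 4 near 0. These drug groups parted only narrowly, and the 13 genes include Stc2, which was below background on all arrays of both. After PH the readings were -0.72, -0.54, -0.94 and -0.88 in C, -0.59, -0.66, -0.38 and -0.68 in C+Fc-GLP-1, 1.21, 1.08, 0.08 and -0.04 in MCD and 0.26, 0.26, 0.50 and 0.67 in M+Fc-GLP-1. All 8 deficient-diet arrays after PH lay above all 8 control-diet arrays, and MCD replicates 3 and 4 were lower than 1 and 2.

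For the 17 chaperone-arm genes, C before PH read -0.06, 0.23, 0.53 and 0.62 and MCD -0.19, 0.03, -0.36 and -0.36, with overlap through C replicate 1. C+Fc-GLP-1 read 0.19, 0.65, 0.56 and 0.11 and M+Fc-GLP-1 -0.28, 0.13, -0.24 and -0.79, overlapping narrowly. After PH the readings were -0.16, 0.49, 0.35 and -0.01 in C, 0.02, 0.62, 0.28 and 0.73 in C+Fc-GLP-1, -0.16, 0.20, -0.34 and -0.30 in MCD and -0.30, -0.20, -0.33 and -0.31 in M+Fc-GLP-1. MCD overlapped C after PH, and M+Fc-GLP-1 was below every C+Fc-GLP-1 array.

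**Figure D5:**
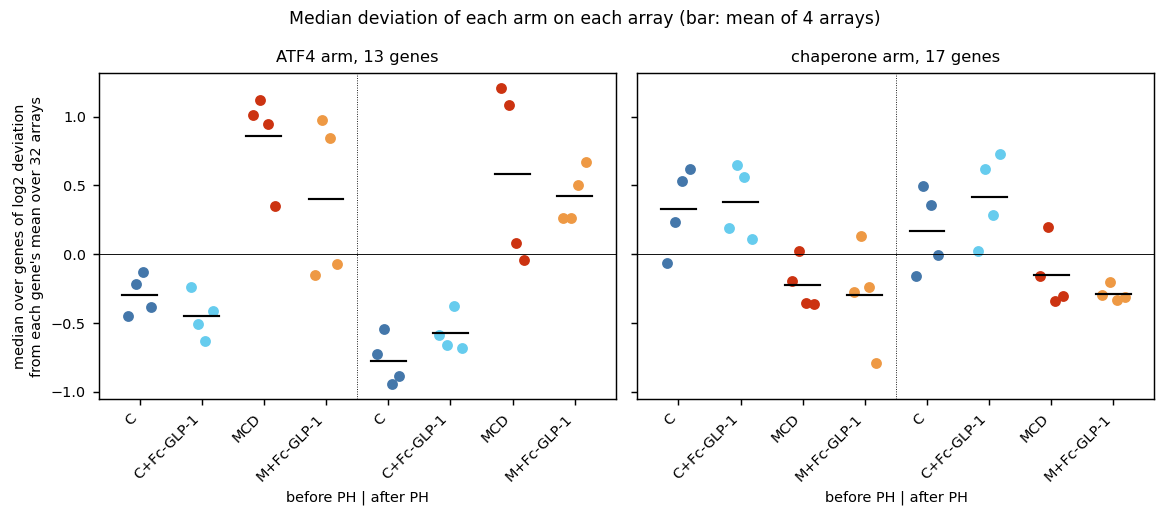
Median deviation of the ATF4 arm (13 genes) and the chaperone arm (17 genes) from each gene's mean, for each of 32 arrays by treatment and time.

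Genes outside the module but in the same pathways give its surroundings, beside the percentages of all genes above. Of 29 other ATF4 targets tested, 11 higher and 2 lower were called for MCD against C before PH (median 0.48), 4 higher and 3 lower under drug before PH (0.15) and 9 higher and 2 lower under drug after PH (0.48). Psat1 of serine synthesis rose by 5.91, 3.87 and 4.61 in these comparisons, with 3 of 4 arrays of C and of C+Fc-GLP-1 before PH above background. Fgf21, a hormone of nutrient shortage, rose by 4.56, 3.23 and 4.51. Atf3 rose by 3.75 for MCD against C before PH, and the amino acid carrier Slc7a1 by 1.50 and 2.22 under drug. In the diet by drug interaction 0 higher and 2 lower were called, Mthfd2 and Yars. No value is given for either, with 1 of 4 M+Fc-GLP-1 arrays above background for Mthfd2 and 0 of 4 C+Fc-GLP-1 arrays for Yars. For MCD against C after PH 10 higher and 1 lower were called.

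Among 11 genes of the eIF2alpha kinases, eIF2 and eIF2B, 2 higher and 1 lower were called for MCD against C before PH: Eif2b2 (0.98), Eif2s1 (0.90) and the heme-sensing kinase Eif2ak1 (-1.44). Under drug the median of this list was -0.12 before and 0.12 after PH. Of 40 other folding, glycosylation and translocation genes, 10 higher and 2 lower were called for MCD against C before PH, with Kdelr3 higher (1 of 4 C arrays above background, so no value is given), Sec24d at 1.34 and Erp44 at 1.15. Under drug 0 higher and 1 lower were called before PH (Sec11c, -1.26) and 1 higher and 0 lower after PH (Srpr, 1.03), and the interaction called 0 higher and 3 lower (Ostc, Ssr1 and Sec24d at -1.86, -1.20 and -1.19).

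Of 16 other genes of ER-associated degradation, 4 higher and 3 lower were called for MCD against C before PH, 1 higher and 2 lower under drug before PH and 3 higher and 2 lower after PH. Derl3, a channel component, fell by 2.24, 2.57 and 2.87. Among 8 membrane-bound factors and proteases, 1 higher and 1 lower were called for MCD against C (Creb3 1.21, Creb3l1 -0.76), and under drug 0 higher and 1 lower before PH (Creb3l2 -1.19). Of 5 cell-death genes under ER stress, 2 higher and 0 lower were called for MCD against C before PH, the death receptor Tnfrsf10b at 2.17 and Bcl2l11 at 0.88. Under drug Bcl2l11 rose by 1.81 before PH (2 of 4 C+Fc-GLP-1 arrays above background) and 1.14 after PH (3 of 4), where Bbc3 fell by 1.52. The interaction called Tnfrsf10b at -2.35 (3 of 4 M+Fc-GLP-1 arrays above background).

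Markers of other liver cell types moved beside the module. All 9 macrophage and Kupffer cell markers were above background on all arrays; the brightest probe was that of Csf1r, or of Marco in MCD and M+Fc-GLP-1 after PH, which orders probe signals and not transcripts. For MCD against C before PH 8 of 9 were called higher (median 1.64), where 6 ATF4-arm genes were too. The summed level was 5.50, 6.30, 5.97 and 5.96 in C, 6.15, 6.68, 5.87 and 6.57 in C+Fc-GLP-1, 7.84, 6.43, 7.54 and 7.60 in MCD and 5.92, 5.89, 5.27 and 6.42 in M+Fc-GLP-1 before PH. After PH it was 8.93, 7.80, 6.72 and 7.58 in C, 8.20, 7.33, 7.58 and 7.34 in C+Fc-GLP-1, 8.43, 8.59, 8.25 and 7.48 in MCD and 7.18, 7.18, 7.54 and 7.23 in M+Fc-GLP-1. In M+Fc-GLP-1 against MCD 6 of 9 were called lower before PH (median -1.71) and 3 after, and the diet by drug interaction called 6 lower (median -2.31). Under drug the diet comparison called 1 of 9, Clec4f, lower before PH (-1.10) and after PH (-1.08), while 5 (without Stc2) and 4 ATF4-arm genes were called higher. Marco was called higher after PH in both drug groups (2.40 and 2.59).

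Neutrophil markers were 6 tested genes, with S100a9 the brightest probe and Mpo below background on all 4 C arrays before PH. They called 3 higher and 0 lower for MCD against C before PH and 4 higher and 0 lower after PH. Their median for the diet under drug was -0.24 before and -0.25 after PH. Before PH, Mpo was above background on 0 of 4 arrays in each drug group. Ngp was above it on 1 of 4 M+Fc-GLP-1 and 0 of 4 C+Fc-GLP-1 arrays, so the first median rests partly on unmeasured levels. The neutrophil markers called 1 higher and 2 lower for M+Fc-GLP-1 against MCD before PH and 0 higher and 5 lower after PH. In the interaction 0 higher and 2 lower were called, and for M+Fc-GLP-1 after against before PH 2 higher and 0 lower. Their sum before PH was 1.64, 1.73, 1.73 and 1.52 in C and 4.21, 2.12, 4.17 and 4.49 in MCD. Under drug it was 1.96, 2.88, 1.37 and 2.61 in C+Fc-GLP-1 and 1.61, 1.85, 1.25 and 2.07 in M+Fc-GLP-1. After PH the sums were 4.74, 5.03, 3.00 and 3.93 in C, 5.60, 3.97, 3.46 and 2.92 in C+Fc-GLP-1, 5.67, 6.85, 6.94 and 7.45 in MCD and 3.33, 3.27, 5.40 and 2.83 in M+Fc-GLP-1. B and plasma cell markers (6, brightest probe Jchain with vehicle and Cd79b with the drug) called 2 higher and 1 lower for MCD against C before PH and 0 higher and 3 lower under drug after PH, with 0 higher and 2 lower and 0 higher and 2 lower for M+Fc-GLP-1 against MCD before and after PH and 0 higher and 1 lower in the interaction. T and NK cell markers (6, brightest probe Nkg7) called 3 higher and 1 lower for MCD against C before PH, 1 higher and 0 lower after PH, 0 higher and 1 lower under drug after PH and 0 higher and 1 lower in the interaction.

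Stellate cell markers (6, brightest probe Col1a2) called 3 higher and 0 lower for MCD against C before PH and 0 higher and 2 lower after PH. Endothelial markers (4, brightest probe Stab2) called 1 higher and 0 lower for MCD against C and 1 higher and 0 lower under drug before PH, Stab2 in both, and Stab2 at -1.08 for M+Fc-GLP-1 after against before PH. Cholangiocyte markers (4, brightest probe Krt19, or Sox9 in MCD after PH) called 1 in total, Epcam at 2.78 for M+Fc-GLP-1 against MCD after PH (2 of 4 MCD arrays above background). Pancreatic acinar markers, 3 of 6 tested with Amy2a5 the brightest probe, called Ctrb1 at -2.46 for MCD against C and Cela2a under drug before PH, at least 3.84-fold lower with 0 of 4 M+Fc-GLP-1 and 3 of 4 C+Fc-GLP-1 arrays above background. The interaction called Ctrb1 at 2.23 and Cela2a lower, the latter without a value since 0 of 4 M+Fc-GLP-1 arrays were above background. The hepatocyte markers called Apoa1 at -1.13 for MCD against C before PH and Tat at 0.86 under drug after PH. Whether a shift of cell types accounts for either arm was not tested.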

How the data were processed

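Liver RNA of 32 samples in 8 groups of 4 was measured on 1-colour Agilent arrays, 1 array per sample, on 5 slides and 2 scanners. The deposited scanner files hold intensity values made with Feature Extraction 10.7.3.1, background-subtracted and detrended within the array. Per the file headers, spot mean and local background signals are intensity values as scanned. The deposited table of normalized values is log2 by its range and was made by the authors with limma, separately before and after PH. Its columns have medians of about 6.54 before and 6.88 after PH, and 75th percentiles of about 8.57 before PH. After PH the 75th percentiles are 9.237 to 9.244 on vehicle arrays and 9.184 to 9.192 on drug arrays. The centring used is not stated. Each of its 32 columns correlated best with its own array's scanner values (r 0.74 to 0.96), and it served for comparisons within a time point.

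Processed signal was taken as log2 minus the 75th percentile (209.4 to 778.4) of the 59305 non-control spots. Of 55681 probes, 426 with all spots marked as outliers on an array were left out, which gave 55255. The 28951 well above background on all 4 arrays of a group were kept, and the brightest probe per gene gave 21086 genes. Names came from RefSeq accessions for 27384 probes (1699 named otherwise in the files). Comparisons used limma 3.58.1 in R 4.3.3 on all groups together, with Benjamini-Hochberg adjustment and a threshold of 0.05. Alternatives were normexp (offset 50) with quantile normalization, median centring, the percentile over the 17910 probes bright on every array, the authors' values, no filter, the mean over probes, the compared groups alone, a replicate block and leaving out each array; a fit with missing values, from which Xbp1 comes, was chosen after seeing the data. The code was tested on simulated data. Tables and figures used Python 3.11.15, numpy 2.4.6, pandas 2.3.3 and matplotlib 3.10.9.

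Members and lists were chosen with earlier results of these data known. Values per sample are given for Atf4, Ddit3, Xbp1, Hspa5 and each member called in the comparisons within slides or an interaction. From each of 6 pathway lists the 3 called genes with the largest change per comparison may be named; marker genes were named after their values were seen. Atf5, Fkbp11, Pck1, Cpa1, Prss2 and Pnlip were listed and not tested. Promoters cover 250 bases upstream and 50 downstream of RefSeq start sites on GRCm38.p6.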

Additional observations from a re-analysis of the deposited data

Results flagged for a closer look

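In 7 of 151 gene and group sets examined, 1 array lay far from the other 3, where chance alone gives about 1 in 20. Ddit3 read 0.00 in C replicate 2 after PH, against -0.40 to -0.33. Vldlr read -2.73 in C replicate 1 before PH, against -1.64 to -1.44, and its call for MCD against C was lost without that array. Pdia6 read 3.46 in C replicate 3 after PH, against 3.11 to 3.17. Calr read 5.65 in C+Fc-GLP-1 replicate 4 before PH, against 6.67 to 6.80. Creld2 read 5.26 in MCD replicate 2 before PH, against 4.58 to 4.63. Herpud1 read 5.55 in M+Fc-GLP-1 replicate 1 after PH, against 6.32 to 6.47. Edem1 read 5.78 in C+Fc-GLP-1 replicate 2 before PH, against 4.33 to 4.55, and its call under drug was lost without that array.

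Of the 2 members called in the interaction before PH, Asns gave -2.96, so the diet raised it less with the drug than without, and MCD lay above M+Fc-GLP-1 on all arrays. Stc2 gave 2.49, but 0 of 4 arrays in each drug group were above background, so no diet change under drug was measured, and its call was kept in 15 of 25 alternatives. The causes were not tested.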

How the results depend on the processing

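Of 54 called member changes, 27 kept their call in every alternative; of 931 refits of these changes, 780 kept the call, 151 lost it and 0 turned direction. The number of members called for MCD against C was 9 to 12 before PH and 7 to 10 after PH when 1 array was left out. Over the other alternatives it was 9 to 11 before PH, and after PH 8 to 11. Under drug the range without 1 array was 8 to 11 before PH and 8 to 12 after PH, and over the other alternatives 6 (the fit of the compared groups) to 11 before PH and 8 to 13 (the mean over probes) after PH. For C+Fc-GLP-1 against C before PH the count moved from 0 to 3 with normexp and with the authors' values, and stayed at 0 (0 to 0) without any 1 array. For M+Fc-GLP-1 against MCD before PH it moved from 3 to 8 with normexp, 6 with median centring, 7 with the authors' values, 5 without the filter, 2 with the replicate block and 1 with the fit of the compared groups, and was 2 to 4 without 1 array.

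For C+Fc-GLP-1 against C after PH the count moved from 1 to 0 with normexp, median centring, the percentile over probes bright on every array, the authors' values, no filter, the fit of the compared groups and the replicate block, and without each array (0 to 0). For M+Fc-GLP-1 against MCD after PH it moved from 2 to 3 with normexp, the authors' values and the replicate block, and to 1 with median centring, no filter and the fit of the compared groups, and was 0 to 3 without 1 array. C+Fc-GLP-1 after against before PH moved from 1 to 2 with normexp and 3 with the percentile over probes bright on every array, and was 0 to 1 without 1 array. M+Fc-GLP-1 after against before PH moved from 2 to 1 with the fit of the compared groups, and was 1 to 2 without 1 array. The diet by drug interaction moved from 2 to 1 with normexp, the authors' values and no filter, and to 5 with median centring, and was 1 to 2 without 1 array. The diet by time interaction stayed at 0 (0 to 0).

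Among uncalled changes, refits were tabulated gene by gene only for Atf4, Ddit3 and Hspa5, in the comparisons within slides and the interactions. Gains and turns of other members are not listed here, nor those of these 3 genes in the remaining comparisons. Of these 3 genes, calls were gained by Atf4 for MCD against C before PH with normexp and the authors' values, by Ddit3 under drug before PH without M+Fc-GLP-1 replicate 1, and by the diet by drug interaction of Ddit3 with median centring. The turns of direction among them follow. With 1 array left out, Atf4 ran from -0.11 to 0.33 and Hspa5 from -0.0401 to 0.23 for MCD against C before PH. Under drug before PH, Atf4 was -0.12 with median centring, -0.15 with the mean over probes and -0.0758 to 0.29 without 1 array. Hspa5 there was 0.0697 with normexp, 0.0217 with the authors' values and -0.32 to 0.0309 without 1 array. Under drug after PH, Atf4 was -0.10 with normexp, -0.0503 with the authors' values, -0.10 with the mean over probes and -0.0785 to 0.31 without 1 array. Without 1 array Ddit3 ran there from -0.24 to 0.36 and Hspa5 from -0.31 to 0.14. The diet by drug interaction of Atf4 was -0.73 with normexp, -0.62 with median centring, -0.72 with the authors' values, -0.71 with the mean over probes and -0.20 to 0.24 without 1 array. The diet by time interaction of Atf4 was 0.19 with median centring, 0.0513 with the mean over probes and -0.21 to 0.19 without 1 array, and that of Hspa5 was -0.18 with normexp and -0.17 to 0.28 without 1 array. The cause was not tested.

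The labels share replicate numbers but do not link arrays by them, and the main fits treat arrays as unpaired. The mean correlation was 0.0172 over 112 pairs with the same number and -0.00529 over 336 with different numbers. Of 32 arrays, 14 correlated best with their own number, and 0 of 28 group pairs had all correlations above 0.1. Blocking on the number ended the calls of Trib3 for M+Fc-GLP-1 against MCD before PH (adjusted p = 0.0545; range over alternatives 0.00669 to 0.177) and of Pdia3 for C+Fc-GLP-1 against C after PH (adjusted p = 0.0543; range 0.046 to 0.365), and no other. A random block for slide was not run, since each group lies on 1 slide and a fixed slide term is spanned by the groups. Groups of 4 arrays, 35.9 to 69.0% of probes above background, and slides that coincide with groups outside the diet comparisons before PH and under drug, where array row coincides with diet, limit what can be read, and Stc2 and Slc7a11 are limited by dim signal.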
